A study of Homo sapiens with 6 samples.

Results

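A group of 46 genes of the interferon response and of antigen presentation was followed in RNA-seq of HT-29 cells depleted of OGT. HT-29 is an established human colorectal cancer cell line that grows attached to the dish. Infection with a lentivirus carrying a Scramble hairpin gave 3 control libraries, numbered 1 to 3, whose genotype the labels give as WT. Infection with a hairpin against OGT (shOGT) gave 3 libraries, numbered 4 to 6, with the genotype OGT knock down. OGT is the enzyme that attaches O-linked N-acetylglucosamine to nuclear and cytoplasmic proteins. Both groups were thus exposed to a lentivirus, and the labels name no interferon treatment. Which of the study's OGT hairpins was used is not stated, and effects of a hairpin outside OGT cannot be told apart from those of OGT depletion. Whether the libraries of a group came from separate cultures is not stated, so p-values measure only the spread between these libraries.

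The members were the protein coding genes whose names fit a fixed list of interferon-related symbols and stems, such as IFI, IFIT, OAS, STAT, IRF, HLA and APOL. This rule was met by 46 of the 5681 genes in the deposited table. The table holds only genes that changed at least 2-fold with an adjusted p-value of at most 0.04997 in the authors' own comparison. A member that passed a threshold here was therefore close to certain to do so, and what the table leaves to be learned is the direction, the size and the pattern among genes. The same rule matched 116 protein coding genes in GENCODE release 29, and the other 70, which include B2M, TAP1, IRF1, STAT3, ISG15, MX1 and IFIT2, were not analysed here.

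Type I interferons bind a receptor made of the chains IFNAR1 and IFNAR2, whose kinases TYK2 and JAK1 phosphorylate STAT proteins. STAT2 and IRF9 take part in a complex that binds the interferon-stimulated response element (ISRE) in the promoters of antiviral genes, while STAT pairs bind the gamma-activated site (GAS) after type II interferon. Many of the induced genes encode sensors, transcription factors and parts of the antigen presentation machinery, so that the response feeds back on itself, and epithelial cells keep some of it running without infection.

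Promoter sequences of 5 members that fell and of IFNAR1, which rose, are shown because they carry, or lack, the letters that the ISRE complex reads. They come from the RefSeq promoter table on GRCh38.p14, run 5′ to 3′ on the strand of the gene, and begin 180 bases before the RefSeq start. Capitals mark the ISRE core, defined here as GAAA, any 2 bases and GAAA again, or the same read on the other strand, where it appears as TTTC, any 2 bases and TTTC. The 5 were the genes with at least 2 matches and the largest fold changes whose stretch could be printed with at most 20 bases inside exons of protein coding transcripts.
IFI44L, chr1:78620268-78620422, plus strand: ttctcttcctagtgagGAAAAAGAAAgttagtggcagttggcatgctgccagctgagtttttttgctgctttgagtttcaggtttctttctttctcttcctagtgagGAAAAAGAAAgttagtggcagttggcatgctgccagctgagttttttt
HERC5, chr4:88456939-88457118, plus strand: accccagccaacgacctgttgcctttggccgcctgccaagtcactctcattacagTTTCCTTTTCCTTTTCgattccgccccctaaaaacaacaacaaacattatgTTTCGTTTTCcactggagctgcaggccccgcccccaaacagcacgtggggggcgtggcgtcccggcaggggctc
IFI27, chr14:94110556-94110697, plus strand: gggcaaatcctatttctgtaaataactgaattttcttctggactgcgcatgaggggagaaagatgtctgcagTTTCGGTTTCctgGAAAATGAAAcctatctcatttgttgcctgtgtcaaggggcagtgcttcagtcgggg
IFIH1, chr2:162318685-162318864, minus strand: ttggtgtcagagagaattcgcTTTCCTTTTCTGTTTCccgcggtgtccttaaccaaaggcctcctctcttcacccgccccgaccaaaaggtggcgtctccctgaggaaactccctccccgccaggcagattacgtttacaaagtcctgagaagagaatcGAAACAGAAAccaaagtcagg
IFI6, chr1:27672199-27672372, minus strand: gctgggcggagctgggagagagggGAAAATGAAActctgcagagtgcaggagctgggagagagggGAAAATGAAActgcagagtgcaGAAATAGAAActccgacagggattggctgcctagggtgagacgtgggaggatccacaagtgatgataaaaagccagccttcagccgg
IFNAR1, chr21:33324215-33324394, plus strand: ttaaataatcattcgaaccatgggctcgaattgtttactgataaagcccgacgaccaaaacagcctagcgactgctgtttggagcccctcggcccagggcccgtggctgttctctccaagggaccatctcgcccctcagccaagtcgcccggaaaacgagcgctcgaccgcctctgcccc

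IFI44L and IFI27 held 2 matches in the printed stretch. HERC5, IFIH1 and IFI6 held 3 each, and in HERC5 and IFIH1 a pair of matches overlapped. IFNAR1 held 0. The stretches of IFI44L, HERC5, IFI27, IFIH1 and IFI6 reach into annotated exons of protein coding transcripts of the same gene by between 2 and 20 bases, the IFIH1 stretch also meets an exon of a non-coding transcript of the neighbouring gene GCA, and the IFNAR1 stretch meets no exon.

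Over the whole windows, from 250 bases before the start to 50 after it, a promoter sequence was found for 33 of the 46 members. IRF7, OAS2, OASL, IRF3, MX2, USP18 and IFNAR2 were among those with none in the table used. An ISRE core was present in 19 of the 30 matched members that were lower in shOGT (63.3%) and in 0 of the 3 that were higher, IFNAR1, HLA-DMB and HLA-DOB. Lower members without a core included XAF1, STAT2, DDX58, CMPK2, IRF5 and IFI16. Among all 15843 protein coding genes with a promoter the share was 4.16%. It was 3.28% in the 1859 other genes of the table that were lower and 3.72% in the 1345 that were higher, so promoters of other genes that fell resembled those of genes in general. At least 2 cores in 1 window were seen in 11 of the 30 lower members (36.7%) and in 0.335% of all protein coding genes. Genes that met the name rule but stand outside the table held a core in 17 of 56 cases (30.4%) and at least 2 in 7 (12.5%).

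The GAS core, TTCNNNGAA, reads the same on both strands. It was present in 8 of the 30 lower members (26.7%), in 8.98% of all protein coding genes and in 6.51% of the other lower genes. Other higher genes of the table held it in 9.59% of cases. Genes that met the name rule but stand outside the table held it in 10 of 56 cases (17.9%). In 4 of the 8 members with a GAS core the match overlapped an ISRE match. OAS1, IFI35 and IRF9 held a GAS core and no ISRE core, whereas PSMB8 held both, apart from each other. All ISRE matches of the members began before the start site, between positions -187 and -4. These matches are descriptions of letters; no binding was measured.

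**Figure D1:**
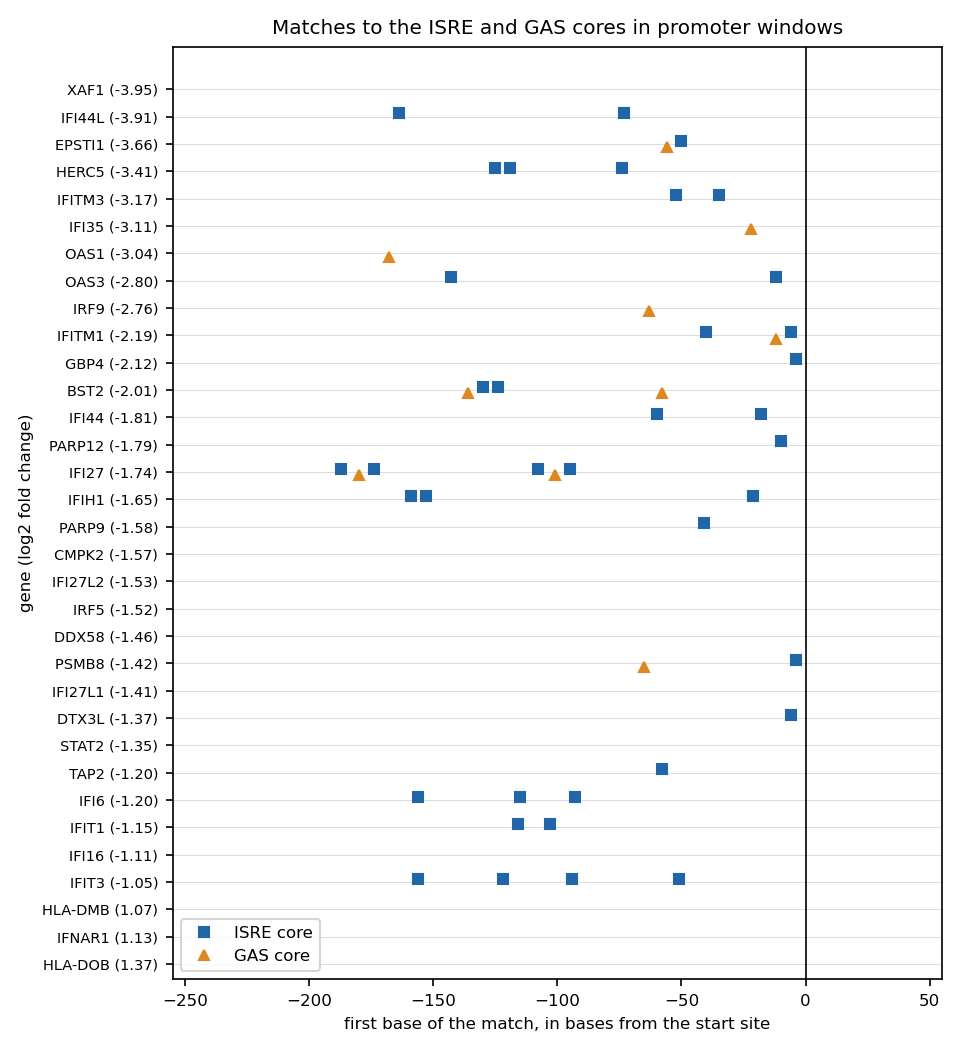
Position of each ISRE core (squares) and GAS core (triangles) in the promoter windows of the 33 members with a RefSeq promoter, in bases from the start site, with genes ordered by log2 fold change in shOGT relative to Scramble. Matches of different windows of 1 gene share a line. The squares lie on lines of genes that were lower, and the lines of HLA-DMB, IFNAR1 and HLA-DOB at the bottom are empty. Lines of some lower genes, such as XAF1 and STAT2, are empty too.

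Values are the authors' normalized counts, meaning reads per gene after scaling each library by its own factor, with no correction for gene length. OGT itself (ENSG00000147162, chrX:71533083-71575897) was at 9628, 11638 and 11619 normalized counts in the Scramble libraries and at 484, 621 and 537 in the shOGT libraries. The groups did not overlap, and the mean fell from 10962 ± 1155 to 548 ± 69.1 (SD, n = 3 each), so 4.99% was retained. The log2 fold change was -4.32 ± 0.11 (SE; limma, adjusted p = 1.59e-12). An exact two-sided permutation test gave p = 0.1, the smallest that 3 against 3 libraries allow.

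Whole reads could be recovered for 100% of the values. Reads on the listed genes numbered 4145921 to 4504303 in Scramble and 3302558 to 3471647 in shOGT, and those on the members 40722 to 44033 and 11089 to 11489. Neither is the depth of a library, since unlisted genes are left out. Of 14 markers of colorectal epithelium, 5 were in the table, with LGALS4 and VIL1 lower and KRT20, KRT19 and CDH17 higher. Of 17 markers of other cell types, 5 were in the table, with ITGAM lower and LYZ, CD14, PECAM1 and PDGFRB higher. Summed normalized counts of these 5 were 8021 to 8739 in Scramble and 15874 to 17643 in shOGT, nearly all of it LYZ, and PDGFRB was at 0 in 2 Scramble libraries. Leukocyte and T cell markers such as PTPRC and CD3E were not in the table and were not analysed here. The part of these markers in the results was not tested. In a bulk sample fewer expressing cells and less RNA per cell cannot be told apart.

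After OGT depletion most members were lower, from signal transducers and transcription factors to antiviral effectors and the peptide transporter chain TAP2. Of the 46 members, 42 were lower and 4 were higher (IFNAR1, IFITM10, HLA-DMB and HLA-DOB) at a change over 2-fold with an adjusted p under 0.05 in the limma fit. Over the 5671 genes tested, 47.2% were lower and 52.2% were higher, 99.4% in all, so the share of members that passed says nothing and their split by direction is the description. Among the other 4081 protein coding genes tested, 56.8% were lower. None of the 46 members had overlapping groups, which was also true of 99.5% of all genes tested. The median log2 fold change was -1.73 over the members, 1.05 over all genes tested and -1.10 over the other protein coding genes.

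The members that fell also lay deep among the genes that fell. Their median log2 fold change was -1.77, against -1.55 for the 2677 genes of the table that were lower. A log2 fold change below -3 was reached by 10 of the 42 members (23.8%) and by 129 of the 2677 genes (4.82%), and one below -2 by 17 members (40.5%) and 729 genes (27.2%). EPSTI1 had no reads in any shOGT library, and without it the counts were 9 and 16 of 41. Since the members were chosen with results known, these shares carry no p-value.

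**Figure D2:**
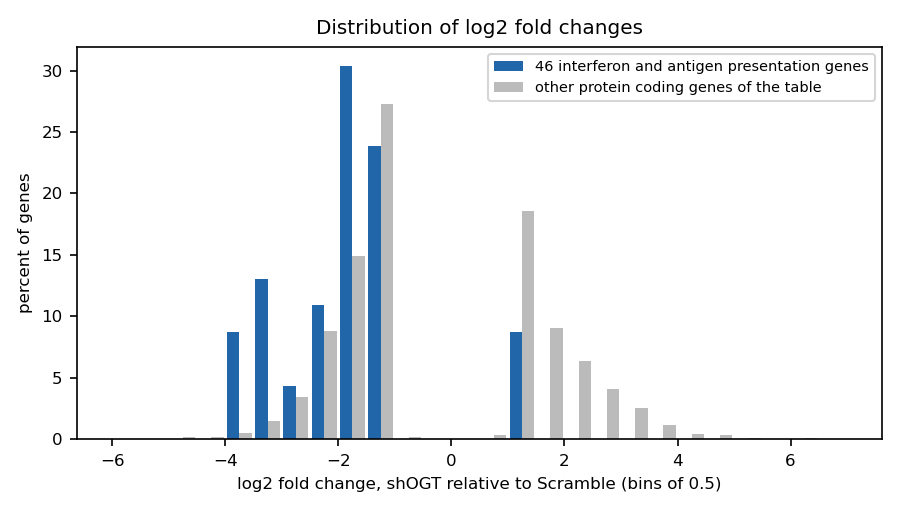
Share of genes (percent, y axis) in bins of 0.5 of the log2 fold change in shOGT relative to Scramble (x axis), for the 46 members and for the other protein coding genes of the table. The gap around 0 comes from the restriction of the table. Between -4 and -3 stand 8.70% and 13.0% of the members in the 2 bins, against 0.515% and 1.45% of the other genes. EPSTI1 stands at its fitted value.

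The scaling of the libraries matters for the size of these changes. The authors set the scaling of the table, over which genes is not stated. Rescaling by the median of ratios used the listed genes with reads in all 6 libraries. It moved the median of all genes up by 0.71 on the log2 scale. That median went from 1.05 to 1.76, further from no change. The other protein coding genes had a median of -1.10 on the deposited scaling, which an upward shift of 0.71 brings nearer to no change. The method takes most genes as unchanged, whereas the listed genes were kept because they changed. The rescaled values therefore show dependence on scaling and are no better estimate. After rescaling, 24 members were lower and 4 higher. The share of calls that were lower went from 91.3% to 85.7% in the members and from 47.5% to 26.8% over all genes. All 42 members kept a negative log2 fold change, but 18 fell short of 2-fold. Among these were STAT2, IRF5, IFIH1, DDX58, CMPK2, IFIT1, IFIT3, IFI6, IFI16, PARP9, DTX3L, APOL3, APOL6, TAP2 and PSMB8.

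**Figure D3:**
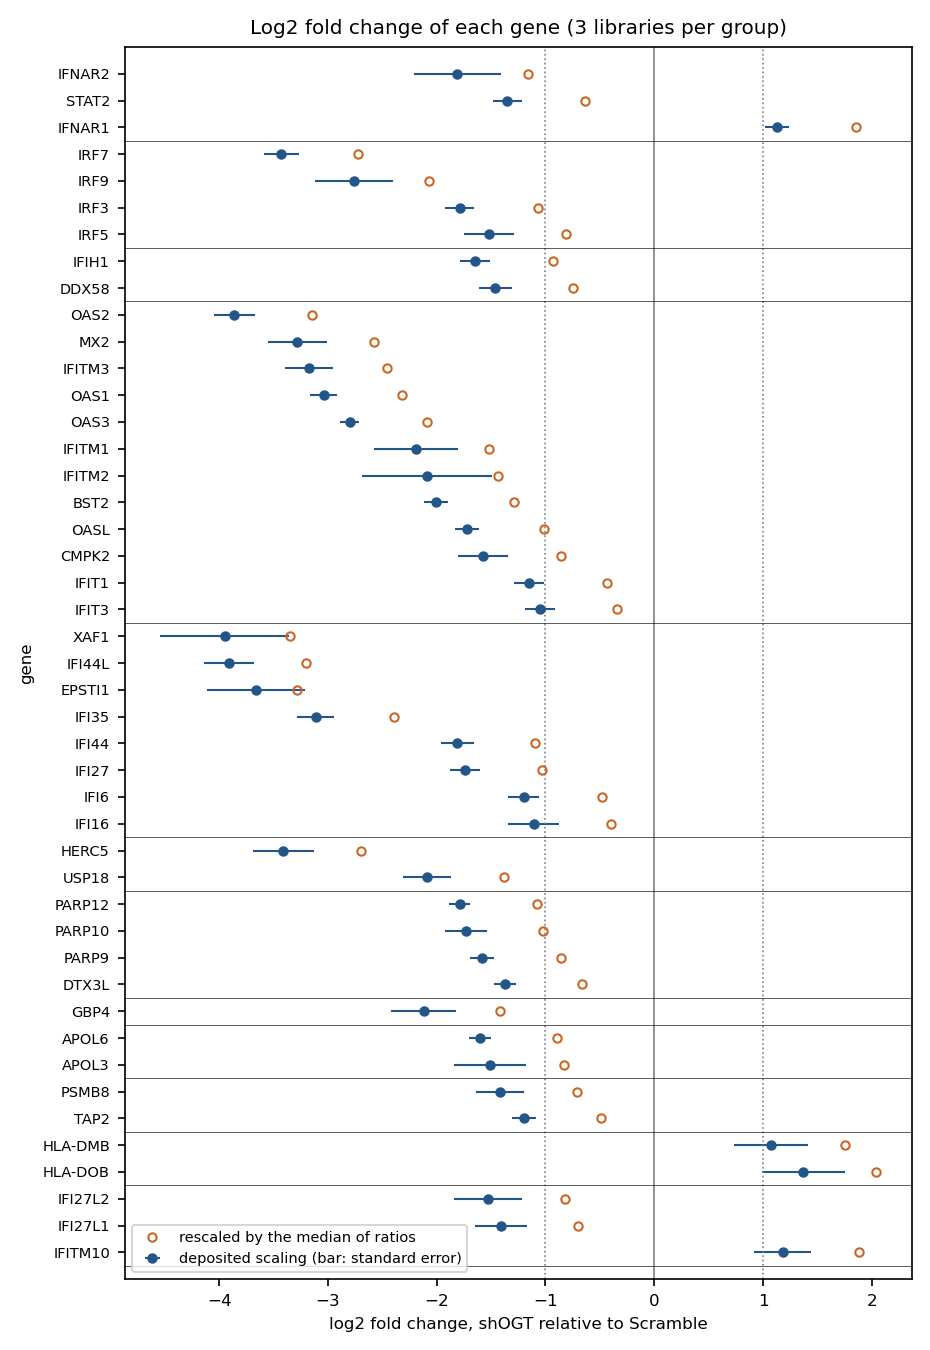
Log2 fold change of 45 of the 46 members in shOGT relative to Scramble (x axis), grouped by role from receptors at the top to genes matched by name only at the bottom. Filled points with bars give the fit on the deposited scaling with its standard error, open points the fit after rescaling by the median of ratios, and dotted lines 2-fold. The open points sit to the right of the filled ones for all 45, and those of IFIT3 and IFI16 come nearest to 0 from the left. The point of EPSTI1 is a fitted value and no bound.

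The receptor chains of type I interferon went in opposite directions. IFNAR1, the chain that carries TYK2 (ENSG00000142166), had normalized counts of 725, 734 and 741 in Scramble and of 1358, 1654 and 1859.8 in shOGT. All shOGT libraries were above all Scramble libraries, and the mean rose 2.22-fold, from 733 ± 8.09 to 1624 ± 252 (log2 fold change 1.13 ± 0.11, limma adjusted p = 2.13e-07). IFNAR2, the chain that carries JAK1 (ENSG00000159110), had 17.7, 16.2 and 28.5 in Scramble against 5.26, 4.28 and 5.69 in shOGT. The groups stood apart at low counts, and 24.4% of the Scramble mean was retained (-1.81 ± 0.40, adjusted p = 0.000562). Per kilobase of gene model, IFNAR1 went from 116 to 258 normalized counts and IFNAR2 from 4.51 to 1.10. IFNAR2 counts are uncertain, because 41.6% of its 75-base stretches also occur in the readthrough gene AP000295.1 and 39.1% of its exon bases lie opposite IL10RB-DT, and the counting is not stated to use strand.

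STAT2 and IRF9, which act in the ISRE-binding complex, both fell. STAT2 was at 518, 518 and 555 normalized counts in Scramble and at 236, 215 and 174 in shOGT. Every shOGT library was under every Scramble library, and 39.3% was retained (log2 fold change -1.35 ± 0.13, limma adjusted p = 2.15e-07). IRF9, the DNA-binding subunit, was at 85.1, 114 and 111 in Scramble and at 8.42, 12.9 and 26.2 in shOGT. It retained 15.3%, less than STAT2 (-2.76 ± 0.36, adjusted p = 5.22e-06), with shOGT library 6 well above library 4. All 75-base stretches of its longest transcript also occur in the readthrough gene AL136295.5, so reads of that gene cannot be told from those of IRF9.

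Of 9 interferon regulatory factors listed, 4 were in the table and all 4, IRF9 included, fell. IRF7, the induced factor that drives the interferon genes themselves (ENSG00000185507, chr11:612553-615999), was at 1345, 1219 and 1220.2 normalized counts in Scramble and at 127, 85.7 and 142 in shOGT. The shOGT libraries held 9.39% of the Scramble mean (1261 ± 72.1 to 118 ± 29.3, log2 fold change -3.43 ± 0.16, limma adjusted p = 2e-10), and the highest of them was far under the lowest control. IRF3, which is present before infection and is activated by the RNA sensors, was at 1678, 1411 and 1441 in Scramble and at 542, 388 and 392 in shOGT. It retained 29.2% (-1.79 ± 0.13, adjusted p = 1.12e-08), with no overlap of the groups, and 19.3% of its exon bases lie opposite BCL2L12. IRF5, which acts after Toll-like receptors, was at 293, 232 and 262 in Scramble and at 118, 58.9 and 106 in shOGT. It retained 35.9% (-1.52 ± 0.23, adjusted p = 1.93e-05), with shOGT library 5 well under the other two.

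Kinases and brakes of the pathway, a list outside the name rule, were in the table for 5 of 10 genes, with 2 lower and 3 higher. SOCS3, a feedback inhibitor of JAK kinases, was at 54.1, 47.8 and 45.1 normalized counts in Scramble and at 211, 161 and 221 in shOGT. TYK2, the kinase at IFNAR1, was at 958, 791 and 764 in Scramble and at 233, 262 and 156 in shOGT. CISH, another inhibitor of cytokine signalling, was at 46.1, 46.9 and 35.0 in Scramble and at 12.6, 22.5 and 13.7 in shOGT. SOCS3 was higher in every shOGT library and TYK2 and CISH were lower in every one, with log2 fold changes of 1.98 ± 0.20, -1.97 ± 0.17 and -1.37 ± 0.34. JAK2 and SOCS1 were higher, at 1.25 and 1.04.

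**Figure D4:**
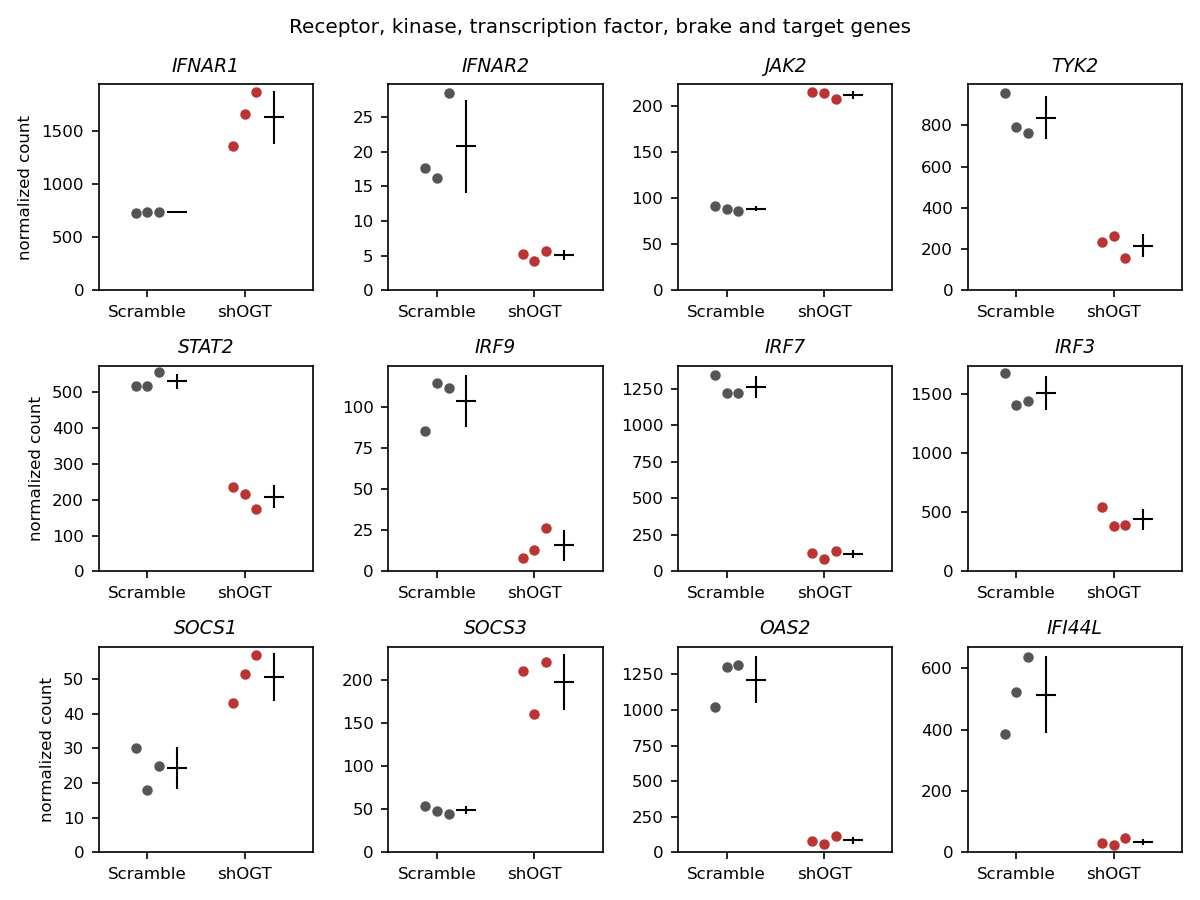
Normalized counts (y axes, each from 0) of receptor, kinase, transcription factor, brake and target genes in the 3 Scramble and 3 shOGT libraries; points are libraries and bars are the mean and SD. IFNAR1, JAK2, SOCS1 and SOCS3 were higher in all shOGT libraries, and IFNAR2, TYK2, STAT2, IRF9, IRF7, IRF3, OAS2 and IFI44L were lower in all of them.

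Both RNA helicases that sense viral RNA and were in the table were lower. IFIH1, also called MDA5, was at 961, 1114 and 1206 normalized counts in Scramble and at 272, 383 and 398 in shOGT. DDX58, also called RIG-I, was at 607, 751 and 805 in Scramble and at 211, 270 and 306 in shOGT. They retained 32.1% and 36.4%, without overlap of the groups, and in both genes the lowest library of each group was Scramble 1 and shOGT 4. The log2 fold changes were -1.65 ± 0.14 and -1.46 ± 0.15. In a separate list of nucleic acid sensing genes, 5 of 18 were listed, each of them lower. DHX58, the regulatory helicase of the same family, was at 123, 143 and 147 in Scramble and at 21.1, 27.8 and 25.0 in shOGT. MAVS, the adapter that both sensors act through, was at 3418, 3044 and 3053 in Scramble and at 1139, 1042 and 871 in shOGT. These gave log2 fold changes of -2.44 ± 0.24 and -1.65 ± 0.10. IFNL1, a type III interferon, had 44 reads in Scramble and 6 in shOGT. Scaled for library size the Scramble level was 6.09 times the shOGT level, with an exact 95.0% interval from 2.59 to 17.5 that covers counting error only.

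Antiviral effectors formed the largest group, with 12 of 20 genes present and lower in every case, at a median log2 fold change of -2.14. OAS2, which makes short oligoadenylates in response to viral RNA (ENSG00000111335), was at 1022, 1301 and 1318 normalized counts in Scramble and at 81.0, 61.1 and 112 in shOGT. MX2, a dynamin-like GTPase that restricts viruses, was at 216, 217 and 275 in Scramble and at 14.7, 31.1 and 27.3 in shOGT. IFITM3, a membrane protein that blocks virus entry, was at 245, 237 and 313 in Scramble and at 22.1, 30.0 and 34.1 in shOGT. The shOGT libraries of these genes lay far under all controls, and 6.97%, 10.3% and 10.9% were retained (-3.86 ± 0.19, -3.28 ± 0.27 and -3.17 ± 0.22). IFITM3 shares 10.8% of its 75-base stretches with IFITM1 and IFITM2, and 21.3% of its exon bases lie opposite another RNA.

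The OAS family fell in order of size by -3.86 (OAS2), -3.04 (OAS1), -2.80 (OAS3) and -1.72 (OASL) on the log2 scale. OAS1 retained 12.2%, OAS3 14.3% and OASL 30.5%. OAS3 was the most abundant of the 4 per length, at 718 normalized counts per kilobase in Scramble and 103 in shOGT.

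The IFIT genes changed least among the effectors. IFIT1 and IFIT3 had log2 fold changes of -1.15 ± 0.14 and -1.05 ± 0.14, and the call of IFIT3 was lost without Scramble library 2 (-0.97) or without shOGT library 4 (-0.92). BST2, or tetherin, which holds budding virus at the cell surface, was the most abundant member per length in Scramble, at 1499 normalized counts per kilobase, and fell to 374. IFITM1, IFITM2 and CMPK2 had log2 fold changes of -2.19 ± 0.39, -2.09 ± 0.60 and -1.57 ± 0.23. IFITM2 rested on 1, 10 and 9 reads in shOGT, and its value was -1.26 without library 4. IFITM1 shares 39.7% of its 75-base stretches with its paralogs.

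Of 14 other interferon-induced genes listed, 8 had rows in the table and each of the 8 was lower. XAF1, a pro-apoptotic partner of XIAP, was at 31.9, 49.6 and 61.7 normalized counts in Scramble and at 0, 3.21 and 5.69 in shOGT. IFI44L was at 385, 521 and 636 in Scramble and at 29.5, 25.7 and 45.5 in shOGT. EPSTI1 was at 7.98, 16.2 and 12 in Scramble, which is 40 reads in all, and at 0 in each shOGT library. XAF1 and IFI44L were lower in every shOGT library, with log2 fold changes of -3.95 ± 0.59 and -3.91 ± 0.23 and 6.22% and 6.53% retained. The value of XAF1 was -3.15 without shOGT library 4, and 38.3% of its exon bases lie opposite PRAL. Against a floor of 3 reads per library EPSTI1 was at least 3.70-fold lower. IFI35 followed at -3.11 ± 0.17. The other 4, IFI44, IFI27, IFI6 and the DNA sensor IFI16, had log2 fold changes from -1.81 to -1.11, and that of IFI16 was -0.85, under 2-fold, without shOGT library 4.

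Enzymes that attach or remove the ubiquitin-like protein ISG15 were in the table for 2 of 5 genes. HERC5, the main ISG15 ligase, was at 229, 245 and 267 normalized counts in Scramble and at 15.8, 19.3 and 36.4 in shOGT. USP18, which removes ISG15 and also restrains the receptor, was at 137, 187 and 183 in Scramble and at 32.6, 41.8 and 42.1 in shOGT. Both were lower in all shOGT libraries, but the ligase retained 9.65% and the protease 22.9% (-3.41 ± 0.28 and -2.09 ± 0.22). USP18 shares 18.3% of its 75-base stretches with USP41.

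The ADP-ribosyltransferase group, PARP12, PARP10, PARP9 and the ubiquitin ligase DTX3L that PARP9 binds, had 4 of 5 listed genes in the table, all lower within a narrow range of log2 fold changes from -1.79 to -1.37. PARP12 was at 1087, 1262 and 1232 normalized counts in Scramble and at 348, 336 and 344 in shOGT. PARP10 was at 280, 239 and 223 in Scramble and at 57.9, 88.9 and 77.4 in shOGT. PARP9 was at 1319.7, 1565 and 1587 in Scramble and at 433, 528 and 534 in shOGT. In none of them did the groups overlap, and the standard errors were 0.10, 0.19 and 0.11. Of 7 guanylate-binding proteins, GTPases that act against intracellular pathogens, GBP4 alone was in the table. It was at 73.6, 60.4 and 72.7 in Scramble and at 12.6, 13.9 and 19.3 in shOGT (-2.12 ± 0.30). Of 6 apolipoprotein L genes, 2 were in the table. APOL6 was at 1437, 1604 and 1666 in Scramble and at 474, 572 and 503 in shOGT, and APOL3 was at 40.8, 33.3 and 38.6 and at 14.7, 12.9 and 10.2. They retained 32.9% and 33.5%, although their levels differed widely.

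Few genes of antigen presentation were in the table. Of 15 listed class I genes, 2 were in the table and both were lower, and of 14 class II genes, 2 were in the table and both were higher. TAP2, a chain of the transporter that brings peptides to class I molecules, was at 672, 675 and 721 normalized counts in Scramble and at 319, 280 and 299 in shOGT. PSMB8, a catalytic subunit of the immunoproteasome, was at 132, 119 and 108 in Scramble and at 53.7, 39.6 and 39.8 in shOGT. They retained 43.4% and 37.1%, with no overlap (-1.20 ± 0.11 and -1.42 ± 0.22). HLA-DMB, a chain of the peptide exchanger HLA-DM, was at 11.5, 16.2 and 18.4 in Scramble and at 40, 27.8 and 31.9 in shOGT. HLA-DOB, a chain of HLA-DO, which restrains HLA-DM, was at 13.3, 15.3 and 6.44 in Scramble and at 27.4, 31.1 and 31.9 in shOGT. Both rose over 2-fold at low counts (1.07 ± 0.34, limma adjusted p = 0.0072, and 1.37 ± 0.38, adjusted p = 0.00326). The call of HLA-DMB was lost without Scramble library 1 (0.89) or without shOGT library 4 (0.93). TAP2 and HLA-DOB share 35.5% and 26.9% of their 75-base stretches with the readthrough gene AL669918.1, and 20.6% of the exon bases of PSMB8 lie opposite PSMB8-AS1. Among 11 partners of peptide loading and class II expression, 3 were listed, and each was lower, unlike the 2 class II genes: the class II promoter factors RFXANK and RFX5 and the endosomal protease LGMN. RFXANK was at 546, 499 and 448 in Scramble and at 249, 204 and 163 in shOGT. RFX5 was at 901, 884 and 811 and at 372, 377 and 388, and LGMN at 947, 886 and 822 and at 448, 436 and 433. The changes were modest, with log2 fold changes of -1.29, -1.19 and -1.01.

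The last 3 members met the rule by name alone and have no established place in the response. IFI27L2 was at 173, 105 and 111 normalized counts in Scramble and at 61.0, 25.7 and 51.2 in shOGT, and IFI27L1 at 107, 95.5 and 97.5 and at 32.6, 47.1 and 33.0. Both were lower without overlap (-1.53 ± 0.31 and -1.41 ± 0.24). IFITM10 was at 44.3, 46 and 51.5 in Scramble and at 148, 117 and 72.8 in shOGT. It was higher (1.18 ± 0.26), at 0.95 without shOGT library 4, and it shares 26.5% of its 75-base stretches with AC068580.4.

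**Figure D5:**
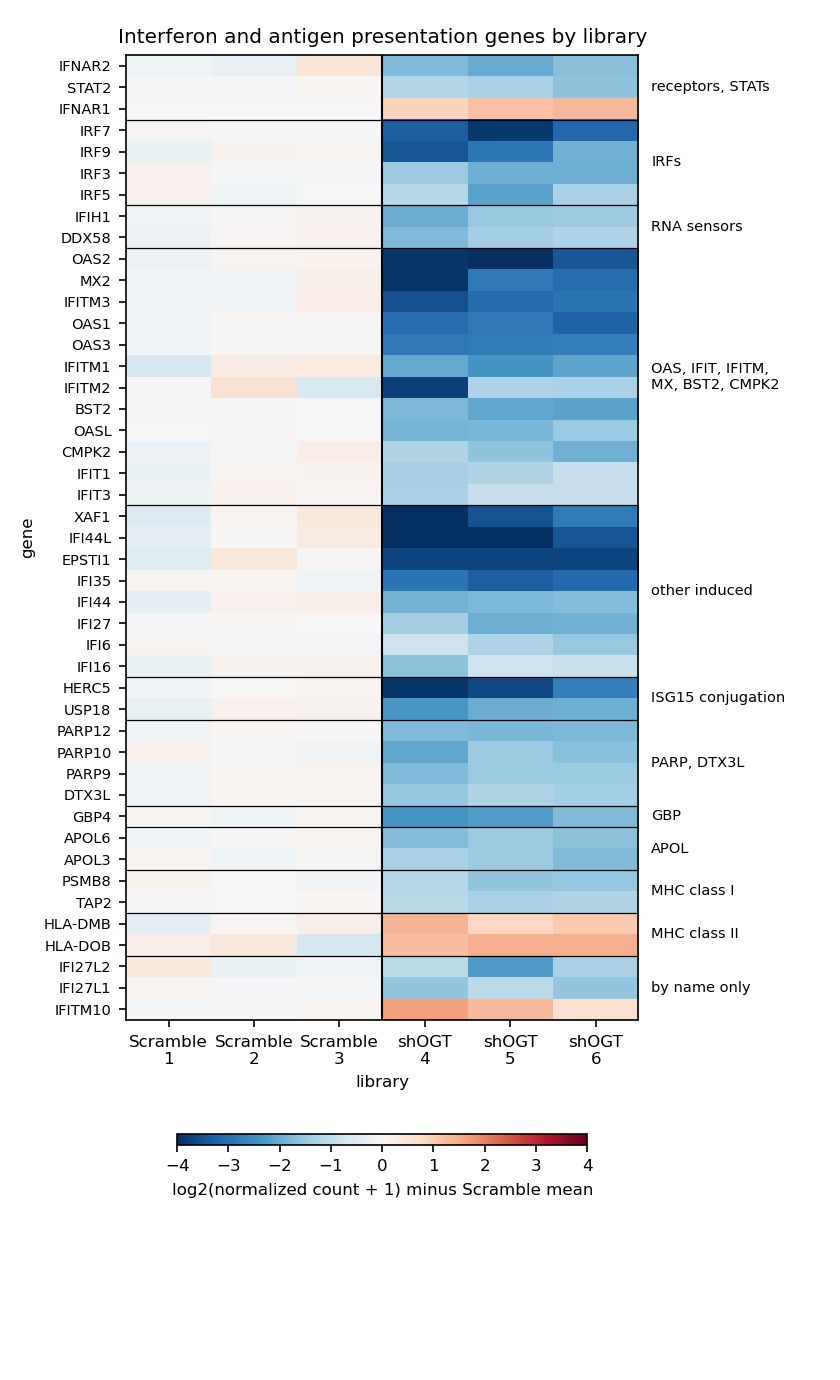
Level of 45 of the 46 members in each library, as log2(normalized count + 1) minus the gene's Scramble mean, grouped by role; columns are the 3 Scramble and the 3 shOGT libraries, blue is lower and red is higher. The shOGT columns are blue for 41 genes and red for IFNAR1, HLA-DMB, HLA-DOB and IFITM10. Colours stop at a difference of 4.

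Members that fell were more often lowest or highest in certain libraries of a group than genes that fell in general. No single order held for all of them. Scramble library 1 was the lowest of the 3 controls in 27 of the 42 (64.3%), against 25.0% of the 2677 genes that fell, and library 3 was the highest in 20 (47.6%), against 19.8%. In the shOGT group library 4 was the lowest in 22 (52.4%), against 25.9%, and library 6 the highest in 18 (42.9%), against 27.9%. Other members went the opposite way. Scramble library 1 was the highest in 12 (28.6%), against 56%, and shOGT library 4 in 14 (33.3%), against 45.9%. Summed over the 42 members, the libraries held 35323, 38868 and 39112 normalized counts in Scramble and 10168, 10476 and 10625 in shOGT. The spread within a group was thus small beside the difference between groups. OGT was lowest in the same libraries, Scramble 1 and shOGT 4. Its highest values were in Scramble 2 and shOGT 5, whereas the members were most often highest in Scramble 3 and shOGT 6. The members share libraries, so these shares describe 6 samples, and why libraries of 1 group differed was not tested.

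There were 8 clusters, holding 21 members, in which neighbours were at most 200000 bases apart. In 6 of these the members moved the same way. Since 42 of the 46 members were lower, such agreement says little by itself. IFI44L and IFI44 on chromosome 1, IFIT3 and IFIT1 on chromosome 10, IFITM2, IFITM1 and IFITM3 on chromosome 11, OAS1, OAS3 and OAS2 on chromosome 12, PARP9 and DTX3L on chromosome 3, and IFI27L1, IFI27 and IFI27L2 on chromosome 14 were all lower. IFIT1B, between IFIT3 and IFIT1, and the flanking IFIT2 and IFIT5 were not in the table. PARP9 and DTX3L overlap head to head over 2.43% and 3.70% of their exon bases. IFITM1 and IFITM2 overlap on the same strand over 32.5% and 22.7% of theirs, so their counts may not be separate.

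The other 2 clusters held members that moved apart. On chromosome 21, IFNAR2 (33229901 to 33265675) fell and IFNAR1 (33324477 to 33359862) rose within 130 kb, with IL10RB between them and IFNGR2 beyond, neither of them in the table. On chromosome 6, HLA-DOB, TAP2, PSMB8 and HLA-DMB stood in this order within 128 kb, from 32812763 to 32941070. The outer genes HLA-DOB and HLA-DMB rose, and TAP2 and PSMB8 between them fell. HLA-DOB and TAP2, 2 neighbours on the same strand, thus differed in direction, and PSMB9 and TAP1, which lie between PSMB8 and HLA-DMB, were not in the table.

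Interferon-induced genes that the name rule leaves out were mostly lower too. Of 50 such genes, 21 were in the table, 18 lower and 3 higher, CD274 and C1S among them, with a median log2 fold change of -1.78. CCL5, a chemokine for T cells, was at 75.4, 86.5 and 68.1 normalized counts in Scramble and at 6.32, 7.50 and 10.2 in shOGT. CXCL10, a chemokine induced by interferons, was at 48.8, 50.5 and 68.1 in Scramble and at 1.05, 6.43 and 18.2 in shOGT. BATF2, a transcription factor, was at 100, 73.9 and 95.7 in Scramble and at 8.42, 18.2 and 12.5 in shOGT. All shOGT libraries of these genes were under the controls (-3.12 ± 0.32, -3.08 ± 0.61 and -2.74 ± 0.33). The value of CXCL10 was -2.23 without shOGT library 4 and -3.85 without library 6. An ISRE core stood in the promoter of 9 of the 12 lower genes of this list with a promoter sequence (75%). At least 2 cores in 1 window were seen in 0 of these 12.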

How the data were processed

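RNA from 3 Scramble and 3 shOGT samples of HT-29 cells was sequenced, and groups were taken from the sample titles. The authors deposited a signal table, in which each value is a read count divided by a library size factor (1.09 to 1.13 in Scramble, 0.879 to 0.95 in shOGT). The deposited log2 fold changes, p-values and group means are the authors' own and served here for nothing but finding which genes had been kept. The deposited gene length, a whole number of bases, equalled the merged exon bases of GENCODE 29 for all genes. Per the labels, cutadapt 1.9, HISAT2 2.0.4, UMI-tools, StringTie 1.3.4d, DESeq2 and edgeR were used, with no roles given. The labels also name the mouse build mm8, whereas all 5681 gene positions were those of GENCODE 29 on human GRCh38. The labels describe oligo(dT) capture and molecular identifiers, the study's methods another strand-specific kit.

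limma 3.58.1 (R 4.3.3, trend method) was run on log2(normalized count + 1) values over genes with at least 1 in at least 3 libraries, with group as the only term and Benjamini-Hochberg adjustment over all genes tested. The design had allowed for raw or normalized values, and the branch for normalized values was used. Calls needed a fold over 2 and an adjusted p under 0.05. All genes tested had already passed the authors' thresholds, so the adjusted p-values come after that selection and do not allow for it. A value is given ± SD for levels and ± SE for log2 fold changes. Fold changes on this scale understate those of low genes. The script was tested on simulated data. Alternatives were DESeq2 1.42.0 and edgeR 4.0.16 run on whole reads (100% of values whole within 0.02), another pseudocount, other filters, rescaling and leaving out each library. Shared sequence was counted as 75-base stretches of the longest transcript found in another gene of GENCODE 29. Members and lists were chosen with earlier results of these data known. Values per library were given for receptors, STATs and IRFs, for the 3 largest changes of each other list and for members that moved against the rest. The lists for kinases, sensing and other induced genes follow the same rule. The remaining members are given by their fold change or range, and BST2 was singled out after its values were seen. The values of some genes that this rule names are not reported here. OGT hairpins were not analysed here.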

Additional observations from a re-analysis of the deposited data

How the results depend on the processing

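No paired analysis was possible because the groups share no replicate number (1 to 3 against 4 to 6). With a pseudocount of 0.1, no filter, a mean of at least 5, edgeR or DESeq2, 42 members were lower and 4 higher, with median log2 fold changes of -1.73 or -1.72, and all 46 kept their call. Rescaling by the median of ratios left 24 members lower, with a median of -1.01, and 1090 of all genes lower. Adjusted p stayed under 0.05 for 44 members, the exceptions being IFIT3 (-0.34, adjusted p = 0.0559) and IFI16 (-0.40, 0.136) in the limma fit. Without 1 library at a time, 40 to 42 members were lower and 2 to 4 higher, and the median ran from -1.73 to -1.62. Over all genes 2512 to 2621 were lower and 2483 to 2897 higher. The 2 higher members came without shOGT library 4, where HLA-DMB (0.93) and IFITM10 (0.95) fell short of 2-fold. EPSTI1 left the fit whenever a Scramble library was left out, since it then failed the filter. The sign of all 46 members held under all alternatives in which they were fitted. Members such as EPSTI1, IFNAR2, IFITM2, HLA-DMB and HLA-DOB rest on few reads, the genes of the table are those past the authors' thresholds, and the scaling over unlisted genes could not be examined.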

Other observations

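Genes near the members that do not code for protein were examined as well, chosen for their position or name. HLA-W, a class I pseudogene whose name fits the rule, was at 8.87, 9.91 and 13.8 normalized counts in Scramble and at 74.7, 48.2 and 45.5 in shOGT. It was higher in every shOGT library (log2 fold change 2.25 ± 0.34, limma adjusted p = 2.19e-05), whereas the class I genes of the table, TAP2 and PSMB8, were lower. Pseudogene counts can include reads of near-identical HLA genes.

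BISPR, a non-coding RNA transcribed away from BST2, was at 110, 99.1 and 100 in Scramble and at 9.47, 8.57 and 31.9 in shOGT. It fell with BST2, by -2.81 against -2.01 on the log2 scale. AL445490.1, an antisense gene at IFI6, was at 14.2, 31.5 and 35.0 in Scramble and at 2.11, 3.21 and 4.55 in shOGT (-2.65, against -1.20 for IFI6). Reads of antisense partners can be told from those of the coding gene only if strand was used in counting, which is not stated.

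AC025594.2, opposite IRF5, was at 0, 0.901 and 0 in Scramble and at 8.42, 7.50 and 5.69 in shOGT, while IRF5 fell. CD274, which encodes the checkpoint ligand PD-L1 and is induced by interferon gamma, was at 19.5, 20.7 and 22.1 in Scramble and at 58.9, 91.0 and 67.2 in shOGT, and so rose (1.73 ± 0.28) while most induced genes fell.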
